A study of Mus musculus with 12 samples.

Results

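The comparison described here is between MIN6 cells in Defined Conditions (DC), which is medium without serum at 5% oxygen, and in Classic Conditions (CC), which is medium with serum at 20% oxygen, all transfected with scrambled control siRNA. It holds 6 of the 12 arrays of the series, taken by their titles: 4 DC arrays and 2 CC arrays. All 19938 genes measured on them by a probe set with exactly 1 gene symbol were tested, and the brightest such probe set stood for a gene. The other 6 arrays (4 DC and 2 CC) are labelled as cells given siRNA to Hes3, a repressor related to the Notch target Hes1, under the same culture conditions. Hes3 signal was not lower in them: it read 7.37, 7.36, 7.38 and 7.25 in DC and 7.22 and 7.23 in CC, against 7.10, 7.24, 7.19 and 7.22 in DC and 7.23 and 6.82 in CC in the scrambled arrays. Hes3 was dim, at percentile 29.8 of the genes by mean signal over the 12 arrays, so a fall may not show in it. The other 6 arrays are therefore named by their label, as the arrays labelled Hes3 siRNA, throughout. MIN6 cells are an insulin-secreting line used to stand in for beta cells. They came from an insulinoma of mice that carry simian virus large T antigen under the insulin promoter. Every culture had been kept in DMEM with 15% fetal calf serum before the experiment and was plated at 50000 cells per well. Transfection at 2 uM siRNA followed after 24 hours, and RNA was taken 12 to 24 hours later. How long the DC cells had been without serum, and what the DC medium held in its place, the labels do not say. Serum and oxygen changed together, so their parts in any difference cannot be told apart. The labels describe all samples as coming from one experiment, and p-values therefore reflect no more than the spread among these samples, which may be technical.

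The deposited log2 signals lay between 3.94 and 14.4, and precision is limited by how few arrays there were. Array medians averaged 7.864 in DC and 7.83 in CC (two-sided exact permutation p = 0.467 over 15 regroupings, of which the smallest possible p is 0.0667). The SD over all probe sets was 1.839 in DC and 1.866 in CC (exact permutation p = 0.333). The 4 DC arrays correlated with each other at 0.996 to 0.998, the 2 CC arrays at 0.993, and DC with CC arrays at 0.987 to 0.993. The 2 CC arrays thus stood about as far from each other as the nearest DC and CC arrays did. On the first principal component, which held 61% of the variance of the 12 arrays, CC array 1 scored -7.96 and CC array 2 scored -32.7, while the DC arrays scored from -9.29 to 1.61. The second component held 18.2%, and on it the DC arrays (11.3 to 17.7) lay apart from the CC arrays (-9.55 and -5.13; exact permutation p = 0.0667). Values without CC array 1 and without CC array 2 are therefore given where they end a call of a named gene or move a count of calls by more than 1.5 times.

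Some background helps to order the genes. Cells match cholesterol synthesis to need through SREBP transcription factors, which are held in the endoplasmic reticulum by Insig proteins when sterols are plentiful and turn on the synthesis enzymes when sterols fall. Serum carries cholesterol in lipoproteins, fatty acids, and growth factors that act through receptor kinases, ERK and SMAD signalling. Low oxygen stabilizes HIF proteins, which turn on glycolysis genes, and beta cells are known for keeping lactate dehydrogenase low. Proinsulin folding places a heavy load on the endoplasmic reticulum of beta cells, which is sensed by the unfolded protein response and by the ATF4 pathway.

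Of the 19938 genes, 1702 passed the test (8.54%; limma with Benjamini-Hochberg adjusted p under 0.05): 616 were higher in DC (3.09%) and 1086 were lower (5.45%). Most differences were small. Of the 1702 genes, 347 differed by at least 1.5-fold (1.74% of all genes), 112 upward (0.562%) and 235 downward (1.18%). At 2-fold or more there were 64 (0.321%), 22 upward (0.11%) and 42 downward (0.211%). The median log2 difference over all genes was 0.02. The 4 DC and 2 CC arrays did not overlap for 5557 genes (27.9%), called or not. The 15 largest rises and 15 largest falls named below were picked among called genes without overlap. For them the lack of overlap was set by that rule. By signal level the count leaned to bright genes, with 345 higher and 592 lower in the brightest of 4 equal parts and 21 higher and 24 lower in the dimmest. Each of these 2 parts held 4985 genes. Counts and shares of gene lists below are set beside those of all genes, which are not matched for signal level. Without CC array 2 the count was 742 (353 higher and 389 lower), of which 673 were among the 1702, and without CC array 1 it was 2364. Since RNA came from whole wells, fewer cells of a type and less RNA per cell cannot be told apart.

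**Figure D1:**
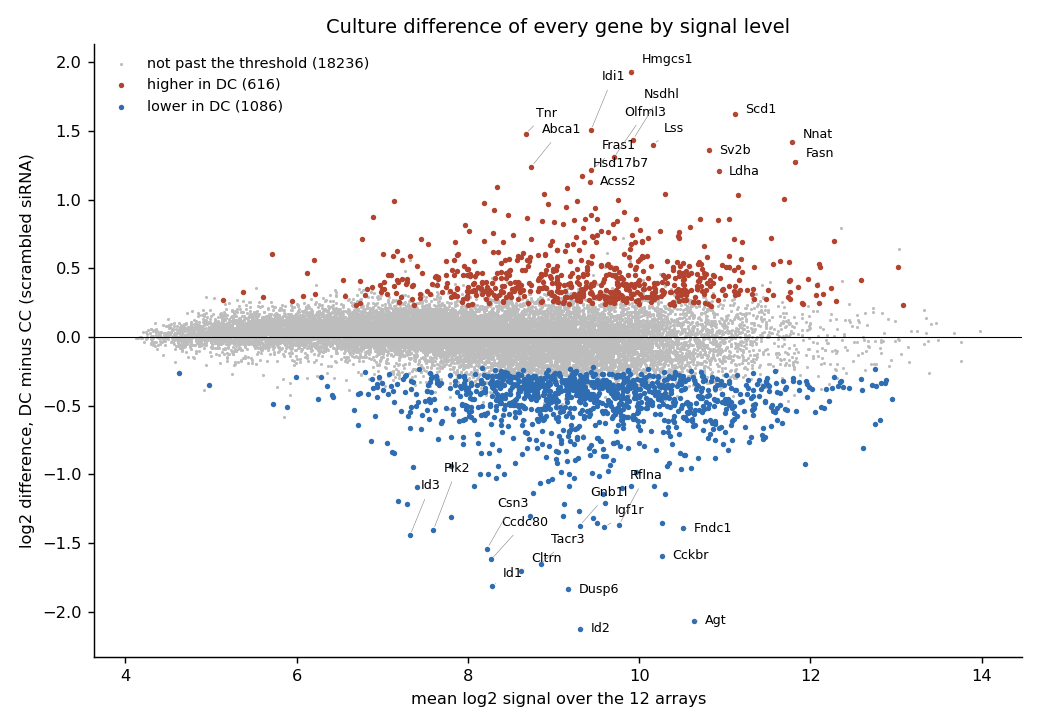
Each point is 1 of 19938 genes, with its mean log2 signal over the 12 arrays on the horizontal axis and its log2 difference, DC minus CC in the scrambled arrays, on the vertical axis. The 616 genes higher in DC (red) are led by Hmgcs1 at 1.93 and the 1086 lower genes (blue) by Id2 at -2.13.

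The enzymes of cholesterol synthesis rose in DC from one end of the pathway to the other. All 9 measured enzymes from mevalonate formation to lanosterol were higher, with a median log2 difference of 1.04 beside 0.02 over all genes, where 3.09% of all genes were called higher. From lanosterol to cholesterol 7 of 8 were higher, with a median of 0.80. Without CC array 1 the counts were 9 and 5, and without CC array 2 they were 9 and 6.

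Hmgcs1, the synthase that makes HMG-CoA, had the largest rise of all genes. Its log2 signals were 10.66, 10.59, 10.77 and 10.70 in the DC arrays and 8.56 and 8.94 in the CC arrays. Every DC array lay far above both CC arrays, and the difference was 1.93 ± 0.143 (SE; limma adjusted p = 1.26e-06), which is 3.81-fold. In the next steps, the mevalonate kinase Mvk (0.49 ± 0.0748), the phosphomevalonate kinase Pmvk (0.45 ± 0.0758) and the decarboxylase Mvd (0.72 ± 0.0794) rose less. Idi1, the isomerase that supplies the isoprenoid building block, read 10.29, 9.85, 10.12 and 10.36 in DC and 8.22 and 9.08 in CC. Its groups did not overlap either, but the CC arrays lay further apart than the DC arrays (1.51 ± 0.197 SE; adjusted p = 0.000161). The prenyl synthase Fdps rose by 1.04 ± 0.0744 and squalene synthase, Fdft1, by 1.04 ± 0.123. Squalene epoxidase, Sqle, was already bright in CC (10.65 ± 0.193 SD, n = 2) and rose by 0.53 ± 0.0981. Lanosterol synthase, Lss, read 10.58, 10.83, 10.66 and 10.75 in DC against 9.24 and 9.37 in CC, a 2.64-fold rise with little spread in either group (adjusted p = 3.37e-07).

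Among the later enzymes, the dehydrogenase Nsdhl was highest in its change, at 10.58, 10.49, 10.53 and 10.54 in DC and 8.83 and 9.36 in CC (1.44 ± 0.118 SE; adjusted p = 2.59e-06). The 4 DC arrays nearly coincided, while the CC arrays differed by more than the DC arrays did. The ketoreductase Hsd17b7 rose by 1.17 ± 0.145, the methyl sterol oxidase Msmo1 by 0.86 ± 0.121, the sterol reductase Tm7sf2 by 0.82 ± 0.0719 and Dhcr7, which makes cholesterol in the last step, by 0.78 ± 0.0743. The demethylase Cyp51 rose by 0.56 ± 0.122 (adjusted p = 0.00816), a call lost without CC array 1 (0.32, adjusted p = 0.114). The desaturase Sc5d rose by 0.29 ± 0.0787, close to the threshold (adjusted p = 0.0278), and was not called when either CC array or any DC array was left out (0.25 without CC array 1 and 0.34 without CC array 2). The exception in the pathway was the isomerase Ebp, at 10.75 ± 0.0707 in DC (SD, n = 4) and 11.06 ± 0.0787 in CC (SD, n = 2), a difference of -0.31 ± 0.102 that did not pass (adjusted p = 0.0764). With the 6 scrambled arrays fitted alone Ebp passed as lower (adjusted p = 0.024).

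Control genes of the pathway moved in both directions. The SREBP genes themselves rose, Srebf1 from 10.25 and 10.08 in CC to 10.89, 11.09, 11.08 and 11.05 in DC (0.86 ± 0.0815 SE) and Srebf2 from 10.33 and 10.48 to 11.12, 11.42, 11.28 and 11.21 (0.85 ± 0.0863). Neither gene's groups overlapped. The 2 Insig genes went opposite ways. Insig1, itself a target of SREBP, read 12.01, 11.98, 12.04 and 12.14 in DC and 10.97 and 11.10 in CC, a 2.01-fold rise (adjusted p = 1.82e-06). Insig2 fell from 10.79 and 10.90 to 10.21, 9.94, 10.25 and 10.21 (-0.69 ± 0.0919; adjusted p = 0.000179). The escort Scap (-0.06 ± 0.0742) and the protease Mbtps1 (-0.06 ± 0.0684), which act on the SREBP proteins, did not pass. The intracellular sterol carrier Stard4 rose by 0.95 ± 0.0798. The HDL receptor Scarb1 fell by 0.42 ± 0.0798 (adjusted p = 0.00322), a call lost without CC array 2 (-0.29, adjusted p = 0.0968), and the lysosomal cholesterol transporter Npc1 did not pass (0.14 ± 0.0674; adjusted p = 0.28). Over the 11 measured genes of uptake and control, 4 rose and 2 fell.

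**Figure D2:**
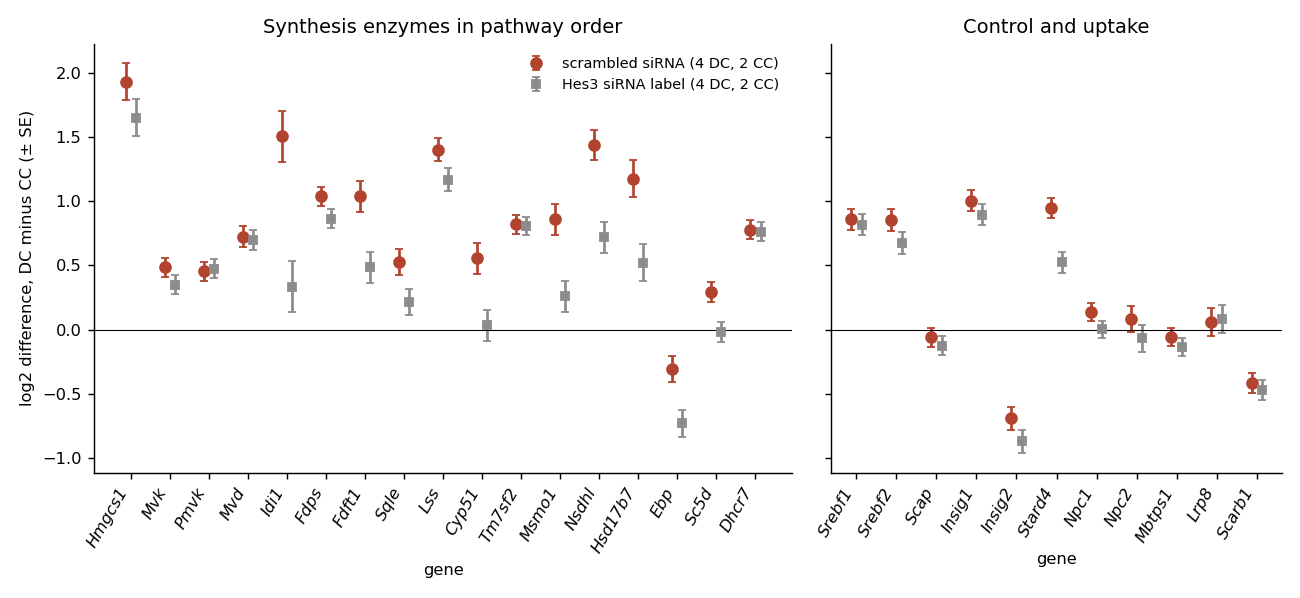
Log2 difference, DC minus CC, with the standard error of the model, for the enzymes of cholesterol synthesis in pathway order (left) and for control and uptake genes (right). Red circles are the scrambled arrays and grey squares the arrays labelled Hes3 siRNA, each with 4 DC and 2 CC arrays. In the scrambled arrays 16 of the 17 enzymes are above 0 and past the threshold, and Ebp, at -0.31, is not.

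Promoter windows show how far the letters of a sterol regulatory element reach in these genes. The windows come from RefSeq (build GRCm38.p6), run from 250 bases before to 50 after a gene's start, and cover 15614 of the 19938 genes. The core TCACNCC, read on both strands, was present for 18.2% of those genes. It was in 1 of 6 windowed genes of the early enzymes, 1 of 8 of the later enzymes and 3 of 8 of the uptake and control genes. The enzyme shares (16.7% and 12.5%) were near that of all genes, and the share of the uptake and control genes was 37.5%, from only 8 genes. A gene counted if any of its windows held the core. By window the uptake and control share was 26.7% of 15, beside 16% of 19177 for all genes. The enzyme lists had 14.3% and 10% by window. The core was not limited to genes that rose, since Insig2, which fell, also holds it upstream. One stretch each is shown for Hmgcs1 and Msmo1, the enzymes of the lists that hold the core. Capitals mark the core in that stretch, and Hmgcs1 has 2 matches upstream in all, 5′ to 3′ along the gene's strand, at chr13:119690174-119690260 on the plus strand for Hmgcs1 and chr8:64733709-64733795 on the minus strand for Msmo1. Both matches read along the gene's own strand.
Hmgcs1: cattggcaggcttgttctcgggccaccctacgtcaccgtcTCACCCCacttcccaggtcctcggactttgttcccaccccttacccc
Msmo1: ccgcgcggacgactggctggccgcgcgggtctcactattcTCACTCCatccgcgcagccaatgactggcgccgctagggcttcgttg

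Fatty acid synthesis rose alongside. Of 19 measured members 10 were higher and 1 lower in DC, with a median of 0.34, and the count was 9 and 0 without CC array 1 and 10 and 0 without CC array 2. Scd1, the desaturase that makes oleate, was nearly identical in the 4 DC arrays, at 11.79, 11.77, 11.76 and 11.76, and read 9.87 and 10.42 in CC. The rise was 1.62 ± 0.114 (SE; adjusted p = 9.45e-07), 3.08-fold. Fatty acid synthase, Fasn, read 12.28, 12.38, 12.35 and 12.34 in DC and 11.15 and 10.97 in CC, so its groups stood apart as well (1.28 ± 0.106). The acetyl-CoA synthetase Acss2 rose by 1.13 ± 0.0895, the carboxylase Acaca by 0.77 ± 0.0711, the phosphatidate phosphatase Lpin1 by 0.73 ± 0.0683 and the mitochondrial citrate carrier Slc25a1 by 0.58 ± 0.101. Among the 9 measured targets of LXR, the receptor for oxidized sterols, 3 rose and 1 fell, with a median of 0.05 (2 and 1 without CC array 1, 2 and 0 without CC array 2). The cholesterol exporter Abca1 stood out among them, at 9.43, 9.25, 9.51 and 9.45 in DC and 8.15 and 8.19 in CC (1.24 ± 0.188; adjusted p = 0.000541). Lpcat3, which puts polyunsaturated chains into phospholipids, rose by 0.49 ± 0.0853. Transcripts of most sterol synthesis enzymes and of the exporter Abca1 were thus both higher in DC.

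Glycolysis genes rose in part. Of 16 measured members 6 were higher and 2 lower in DC, with a median of 0.29. The rising ones included Ldha, the lactate dehydrogenase subunit counted among genes disallowed in beta cells, at 11.59, 10.99, 11.64 and 11.36 in DC and 10.05 and 10.33 in CC. The groups did not overlap, though DC array 2 lay nearer to the CC arrays than the other DC arrays did, and the rise was 1.21 ± 0.227 (SE; adjusted p = 0.00285), 2.31-fold. The disallowed genes did not rise as a group. Of 22 measured, 2 were higher, Ldha among them, and 3 were lower, with a median of 0.01. That is 22.7% called, beside 8.54% of all genes. The calls of this list changed when either CC array was left out, and those of its falls rested on CC array 2. The median was 0.08 without CC array 1 and -0.05 without CC array 2. The aldolase Aldoc read 9.71, 9.25, 9.82 and 9.71 in DC against 8.36 and 8.71 in CC (1.09 ± 0.15; adjusted p = 0.000248), again with DC array 2 lowest. These 2 rises were called without either CC array. Those of the phosphofructokinases Pfkl (0.73 ± 0.163) and Pfkp (0.52 ± 0.135), of the kinase Pgk1 (0.72 ± 0.171) and of the lactate exporter Slc16a3 (0.69 ± 0.172) were lost without CC array 1, at 0.61, 0.48, 0.50 and 0.53. Pfkp was also lost without CC array 2 (0.55, adjusted p = 0.109). The lactate and pyruvate carrier Slc16a1 fell by 0.50 ± 0.109, a call lost without CC array 2 (-0.52, adjusted p = 0.0557). Without CC array 1 the list had 2 higher and 2 lower, and without CC array 2 it had 5 higher and 0 lower.

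The wider set of HIF targets did not rise as a group. Of 38 measured hypoxia targets 3 were higher and 4 lower in DC, which is 18.4% called beside 8.54% of all genes, with a median of 0.04. The count was 3 higher and 3 lower without CC array 1, and 3 higher and 0 lower without CC array 2. Wsb1, part of a ubiquitin ligase, rose by 0.86 ± 0.101, from 9.41 and 9.45 in CC to 10.42, 10.17, 10.33 and 10.24. Pdk1, the kinase that keeps pyruvate out of mitochondria, rose by 0.76 ± 0.138, from 7.84 and 7.93 to 8.72, 8.49, 8.83 and 8.52. Ndrg1, a stress-induced cytoplasmic protein, rose by 0.52 ± 0.0884. All 3 had DC arrays wholly above the CC arrays. The oxidase Ero1a (-0.53 ± 0.118) and the collagen hydroxylases Plod2 (-0.50 ± 0.125) and P4ha2 (-0.41 ± 0.118) fell, and all lost their call without CC array 2 (-0.41, -0.33 and -0.39). P4ha2 lost it without CC array 1 as well (-0.43, adjusted p = 0.0851). Of well-known targets picked here after their values were seen, Vegfa, the angiogenic factor, was at 11.30 ± 0.0475 in DC (SD, n = 4) and 11.27 ± 0.0156 in CC (SD, n = 2), a difference of 0.03 ± 0.0797 (adjusted p = 0.886). The mitophagy gene Bnip3 differed by 0.72 ± 0.278 (adjusted p = 0.144), with overlapping arrays, and the glucose transporter Slc2a1 by -0.44 ± 0.156 (adjusted p = 0.104). Slc2a1 passed as lower with the 6 scrambled arrays fitted alone (adjusted p = 0.00317). Of the 8 genes of HIF subunits and oxygen sensors, 0 passed limma (3 at an unadjusted p under 0.05), and 1 was lower without CC array 1. Hif1a overlapped between the groups (9.79, 9.59, 9.71 and 9.76 in DC against 9.32 and 9.81 in CC; 0.15 ± 0.124, adjusted p = 0.608), and its sign turned without CC array 1. Its partner Arnt differed by -0.18 ± 0.0768 (adjusted p = 0.203).

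The hypoxia response core ACGTG, read on both strands, was in a promoter window of 24.4% of the 15614 windowed genes. It was in 11 of 16 glycolysis genes (68.8%) and in 19 of 29 windowed hypoxia targets (65.5%). Since most of those hypoxia targets were not called, the letters alone did not mark the genes that rose. Short stretches of the windows of Ldha and Wsb1 are shown, which rose in DC with arrays that did not overlap. Capitals mark the matches inside the stretch, and in Ldha the palindrome counts once on each strand. Each gene has 2 start windows, and the window its stretch was taken from holds 5 matches upstream, more than the stretch itself. The stretches lie at chr7:46845730-46845803 on the plus strand for Ldha and chr11:79254725-79254809 on the minus strand for Wsb1.
Ldha: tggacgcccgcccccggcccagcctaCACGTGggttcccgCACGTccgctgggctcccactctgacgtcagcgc
Wsb1: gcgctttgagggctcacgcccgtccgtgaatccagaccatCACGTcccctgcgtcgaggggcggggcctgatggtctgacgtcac

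The largest falls included targets of BMP and SMAD signalling. Of 17 measured members of the BMP and TGF-beta list 7 were lower and 0 higher in DC, with a median of -0.15, and 5.45% of all genes were lower. The count was 6 without CC array 1 and 4 without CC array 2. The Id genes, which encode inhibitors of basic helix-loop-helix factors, stood at the head. Id2 read 8.80, 8.73, 8.60 and 8.84 in DC and 10.62 and 11.11 in CC, the largest fall of all genes (-2.13 ± 0.207 SE; adjusted p = 1.13e-05), 4.36-fold. Id1 read 7.58, 7.52, 7.60 and 7.63 in DC and 9.23 and 9.56 in CC (-1.81 ± 0.0968; adjusted p = 4.07e-08). Id3 read 6.62, 6.81, 6.66 and 6.74 against 7.90 and 8.40 (-1.44 ± 0.127; adjusted p = 4.42e-06). In all 3 the CC arrays lay more than 1 log2 unit above every DC array. The inhibitory SMAD gene Smad7 fell by 0.50 ± 0.0785 and the SMAD corepressor Skil by 0.44 ± 0.0837, and Skil missed the threshold without CC array 2 (-0.39, adjusted p = 0.0588).

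Genes that report growth factor signalling fell too. Called members were 42.9% of the ERK feedback list and 28.6% of the immediate early list. Among cytoskeletal targets of serum response factor and YAP 4.76% were called, and among all genes 8.54%. Of 14 measured members of the ERK feedback list 5 were lower and 1 higher, with a median of -0.28. The count was 8 lower and 0 higher without CC array 1 and 4 lower and 0 higher without CC array 2. Dusp6, the phosphatase that switches off ERK, read 8.48, 8.74, 8.80 and 8.65 in DC and 10.32 and 10.68 in CC, a 3.57-fold fall with no overlap (-1.84 ± 0.143 SE; adjusted p = 1.82e-06). The ETS factors Etv5 (-0.75 ± 0.0848) and Etv4 (-0.46 ± 0.0849) and the phosphatase Dusp5 (-0.55 ± 0.0963) fell as well. The inhibitor Spry4 fell by 0.42 ± 0.0864, a call lost without CC array 2 (-0.31, adjusted p = 0.129). Of 28 immediate early genes 7 were lower and 1 higher, with a median of -0.17 (5 and 0 without CC array 1, 6 and 1 without CC array 2). The phosphatase Dusp1 (-0.86 ± 0.104), the nuclear receptor Nr4a2 (-0.80 ± 0.102) and the AP-1 subunits Jun (-0.75 ± 0.0981) and Fos (-0.64 ± 0.102) led them. Fos read 8.04, 8.10, 8.15 and 8.14 in DC and 8.74 and 8.77 in CC, so its arrays were close within each group and apart between them. Egr1 fell less (-0.35 ± 0.0834) and lost its call without CC array 1 (-0.29, adjusted p = 0.0907). Cytoskeletal targets of serum response factor and YAP did not take part, with 1 of 21 called (2 without CC array 1, 0 without CC array 2), the tropomyosin Tpm1 (-0.42 ± 0.0849; -0.31 and adjusted p = 0.121 without CC array 2).

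Other large falls are given gene by gene, as members of no common list. Igf1r, the receptor for insulin-like growth factors, read 8.96, 9.11, 9.14 and 9.04 in DC and 10.47 and 10.43 in CC (-1.39 ± 0.173 SE; adjusted p = 0.000107), 2.61-fold. Agt, which encodes angiotensinogen, read 9.73, 9.86, 9.80 and 9.87 against 11.81 and 11.95 (-2.07 ± 0.2; adjusted p = 1.08e-05). Cckbr, the gastrin and cholecystokinin receptor, read 9.68, 9.78, 9.63 and 9.73 against 11.28 and 11.31 (-1.59 ± 0.117; adjusted p = 1.24e-06). For all 3 genes the 2 CC arrays were close together and well above every DC array. The neurokinin receptor Tacr3 (-1.65 ± 0.14), the amino acid transport partner collectrin, Cltrn (-1.70 ± 0.144), the casein Csn3 (-1.54 ± 0.154) and the secreted matrix protein Ccdc80 (-1.62 ± 0.145) were also among the 15 largest falls. Gnb1l, a WD repeat protein, fell by 1.37 ± 0.0715 on the probe set used, and by 0.456 on its other, dimmer probe set. The cytokine signalling inhibitor Socs2 fell by 0.66 ± 0.0824 on the probe set used and by 2.01 on its other one, so the size of both falls depends on the probe set. Of 26 genes of FoxO and insulin signalling 4 were higher and 2 lower, with a median of 0.06 (2 higher and 4 lower without CC array 1, 3 higher and 1 lower without CC array 2). Beside Igf1r, the repressor Bcl6 (0.49 ± 0.074) and the sestrin Sesn1 (0.44 ± 0.0819) rose.

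**Figure D3:**
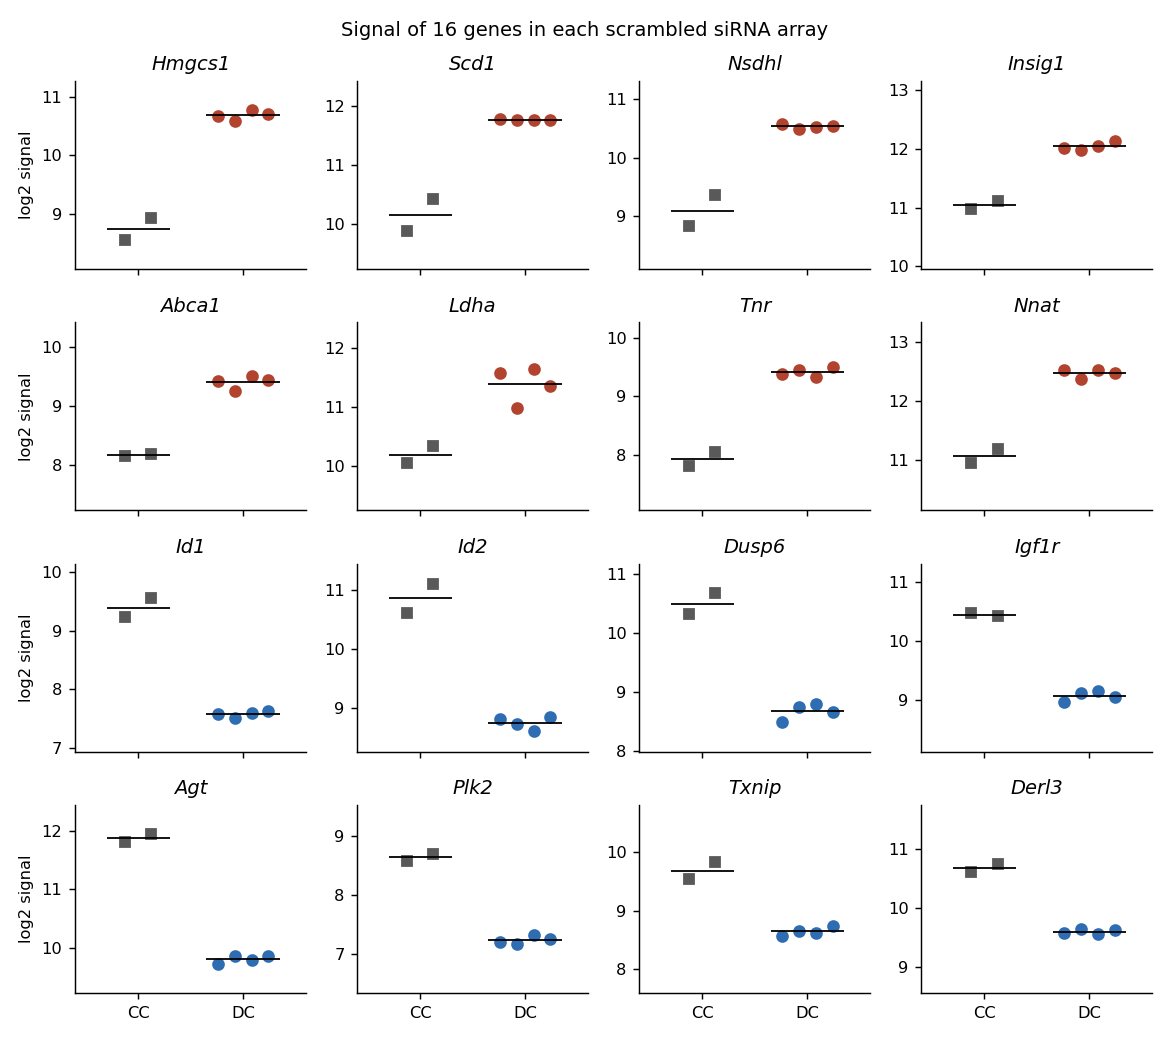
Log2 signal of 16 genes in each scrambled array: 2 CC arrays (grey squares) and 4 DC arrays (circles, red where the gene was higher in DC and blue where it was lower), with a line at each group's mean. Each panel spans the same range of log2 units around its own middle. In all 16 panels the 2 groups do not overlap, and the CC arrays of Scd1 (9.87 and 10.42) lie further apart than its DC arrays. Genes from the 15 largest rises or falls were picked for having no overlap, so for their panels it was fixed in advance.

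Genes of protein folding in the endoplasmic reticulum were lower in DC. Of 28 measured members 16 were lower and 0 higher, with a median of -0.35. The count rested on CC array 2: it was 15 without CC array 1 and 4 without CC array 2, although the median stayed at -0.29. Derl3, a subunit of the channel that exports misfolded proteins, read 9.57, 9.64, 9.55 and 9.62 in DC and 10.61 and 10.75 in CC (-1.08 ± 0.202 SE; adjusted p = 0.0026). The DC arrays lay close together and about 1 log2 unit below CC. Dnajc3, a cochaperone that restrains the kinase PERK, read 10.21, 10.17, 10.18 and 10.26 against 11.03 and 11.31 (-0.96 ± 0.131), and the chaperone cofactor Dnajb11 fell by 0.77 ± 0.125. Dnajb9, a cofactor of BiP, read 10.74, 10.42, 10.35 and 10.51 in DC and 11.17 and 11.74 in CC. Its CC arrays lay further apart than those of Derl3 and Dnajc3, and its fall (-0.95 ± 0.198) was lost without CC array 2 (-0.67, adjusted p = 0.151). Calls were lost without CC array 2 also for Creld2 (-0.65 ± 0.151; -0.56 without it) and Sdf2l1 (-0.54 ± 0.104; -0.44 without it). Bhlha15, also called Mist1, a transcription factor of secretory cells, fell by 0.74 ± 0.115.

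Genes of the ATF4 and amino acid response were lower as well. Of 32 measured members 14 were lower and 0 higher, with a median of -0.29. The count was 14 without CC array 1 and 6 without CC array 2, where the median was -0.25. The cystine importer Slc7a11 read 8.14, 8.08, 8.07 and 8.05 in DC and 8.99 and 9.23 in CC (-1.02 ± 0.0957 SE; adjusted p = 7.48e-06), 2.03-fold. The stress-induced chromatin protein Nupr1 read 9.94 to 10.02 in the 4 DC arrays against 10.76 and 11.08 (-0.94 ± 0.111). In both genes the DC arrays were tightly grouped below the CC arrays. The aminotransferase Gpt2 fell by 0.53 ± 0.0817 and the arginine and lysine transporter Slc7a1 by 0.50 ± 0.0812. The serine and glycine enzymes Psat1 (-0.54 ± 0.106) and Shmt2 (-0.49 ± 0.0988) fell too, and both lost their call without CC array 2 (-0.32 and -0.39). The core TGATGNA of an ATF4 element, read on both strands, was in 13 of 27 windowed members (48.1%) and in 11.2% of all windowed genes. Stretches of the windows of Slc7a11 and Nupr1, which had the largest falls among members that hold the core, are printed with the core in capitals. They lie at chr3:50443614-50443699 and chr7:126625533-126625619, both on the minus strand, and Slc7a11 holds 2 copies in opposite orientation.
Slc7a11: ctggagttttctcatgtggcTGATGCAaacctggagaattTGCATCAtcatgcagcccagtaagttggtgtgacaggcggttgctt
Nupr1: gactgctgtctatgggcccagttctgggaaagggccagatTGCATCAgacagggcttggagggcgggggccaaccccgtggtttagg

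Targets of p53 were lower in DC. Of 20 measured members 9 were lower and 1 higher, with a median of -0.30, and the count hardly depended on a CC array (8 and 1 without CC array 1, 7 and 1 without CC array 2). Plk2, a polo-like kinase, read 7.20, 7.17, 7.32 and 7.25 in DC and 8.58 and 8.70 in CC (-1.41 ± 0.143 SE; adjusted p = 1.78e-05), 2.65-fold. Mdm2, the ubiquitin ligase that degrades p53, read 9.40, 9.43, 9.34 and 9.44 against 10.20 and 10.34 (-0.87 ± 0.128; adjusted p = 0.000414). Both genes had narrow groups that did not overlap. Plk3 (-0.88 ± 0.117), cyclin G1, Ccng1 (-0.66 ± 0.105), Trp53inp1 (-0.60 ± 0.116) and the RNA-binding Zmat3 (-0.45 ± 0.0788) fell as well. The member that rose was Sesn1, named above.

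Cell cycle genes differed by phase in the scrambled arrays, and the mitotic part went the other way in the arrays labelled Hes3 siRNA. Of 39 S phase and replication genes 9 were lower and 0 higher in DC (median -0.22), and of 34 G2/M and mitosis genes 10 were higher and 0 lower (median 0.24). Both counts hung on the CC arrays. Without CC array 1 the S phase count was 17 and the G2/M count was 2 higher and 1 lower. Without CC array 2 they were 2 lower and 8 higher. In the arrays labelled Hes3 siRNA the S phase list had 27 lower and 1 higher (median -0.38), and the G2/M list had 13 lower and 0 higher (median -0.18), where 18.8% of all genes were called lower. The brightest of 4 equal parts of all genes had a median of -0.19 under that label, and the dimmest 0.15. The part of signal level in these list counts was not tested. The ribonucleotide reductase subunit Rrm2 read 9.58, 9.34, 9.63 and 9.49 in DC and 10.06 and 10.54 in CC (-0.79 ± 0.122 SE), and the primase Prim1 fell by 0.62 ± 0.101. Both were lower in every DC array than in either CC array. The cytokinesis motor Kif23 read 10.45, 10.50, 10.41 and 10.38 in DC and 9.71 and 9.76 in CC (0.70 ± 0.128), and the kinetochore protein Cenpf rose by 0.44 ± 0.0826. Anln, a scaffold of the cleavage furrow (0.49 ± 0.105), and the mitotic kinase Plk1 (0.41 ± 0.0969) rose too, with calls lost without CC array 1 (0.41, adjusted p = 0.0591, and 0.30, adjusted p = 0.112).

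**Figure D4:**
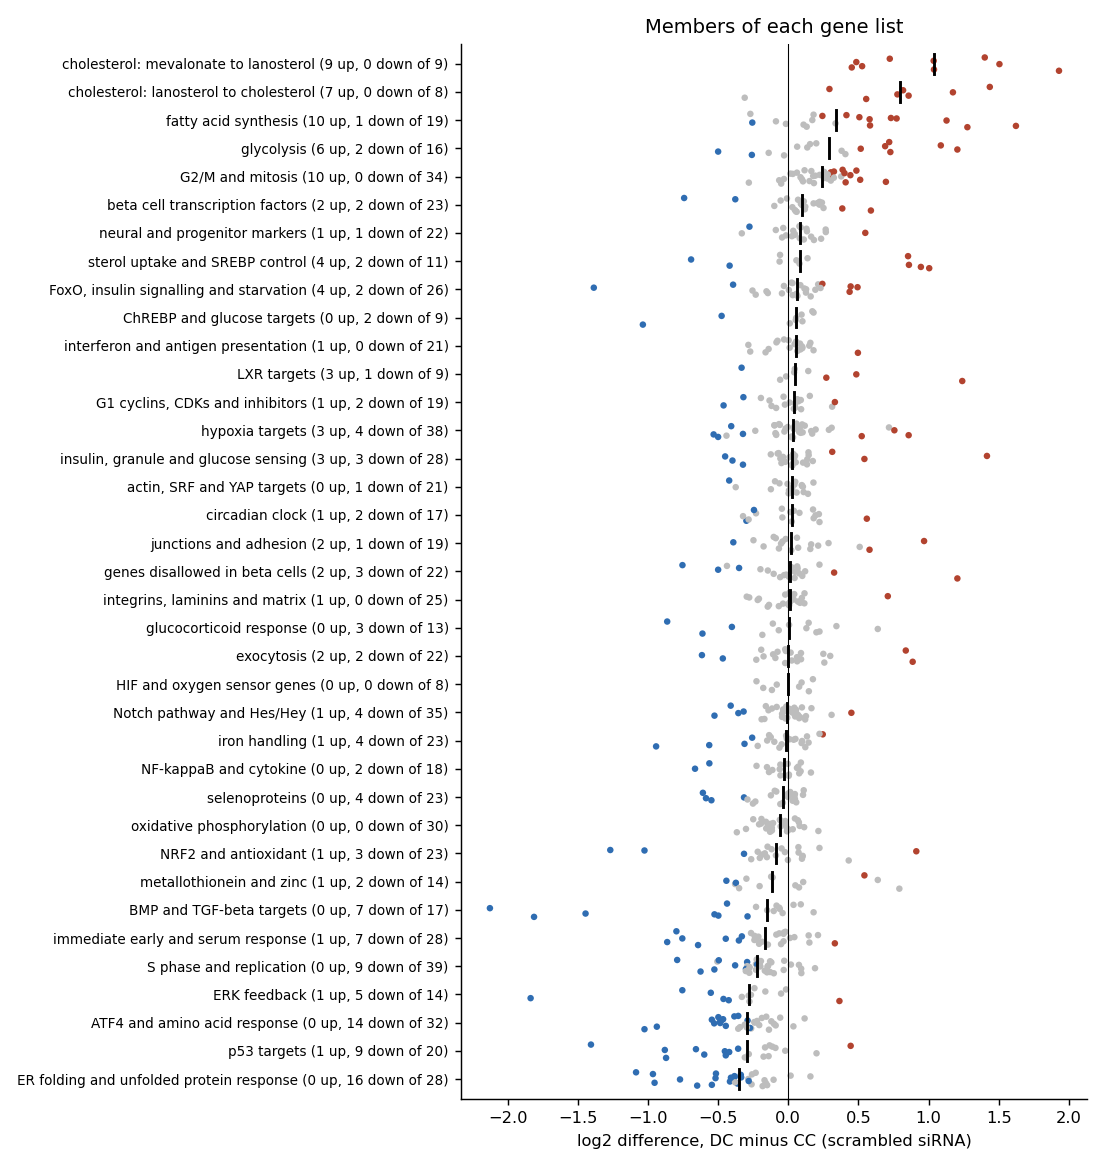
Log2 difference, DC minus CC, of each measured member of 37 gene lists, ordered by their median (black bar). Members past the threshold are red where higher in DC and blue where lower, and grey points did not pass. The cholesterol lists lie at the top, with medians of 1.04 and 0.80, and the list of protein folding in the endoplasmic reticulum at the bottom, with -0.35.

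Insulin and the factors Pdx1 and Mafa did not pass, while some other beta cell genes did. Called members were 20% of the beta cell markers and 17.4% of the beta cell transcription factors, beside 8.54% of all genes. Bright genes were called more often, and Ins2, Pdx1 and Mafa lay at percentiles 99.8, 98.6 and 93.8 of signal. The part of signal level in these shares was not tested. Insulin, Ins2, was at 12.89, 12.85, 12.89 and 12.92 in DC and 12.83 and 12.89 in CC (0.03 ± 0.0625 SE; adjusted p = 0.875), and its sign turned when arrays were centred on their median. The beta cell factors Pdx1 (0.06 ± 0.107; adjusted p = 0.845) and Mafa (0.21 ± 0.101; adjusted p = 0.269) overlapped between the groups, and the sign of Pdx1 turned without CC array 1. Of the 10 beta cell markers 2 rose (1 without CC array 1), and their summed linear signal was 53559 to 56735 in DC and 52814 to 54778 in CC, with overlap. The zinc transporter of insulin granules Slc30a8 read 12.05, 11.97, 12.08 and 11.96 in DC and 11.55 and 11.39 in CC (0.54 ± 0.0772; adjusted p = 0.000313). The factor Nkx6-1 rose by 0.39 ± 0.102, lost without CC array 1 (0.28, adjusted p = 0.164). Isl1, a factor of endocrine cells, rose from 10.70 in both CC arrays to 11.31, 11.22, 11.38 and 11.25 (0.59 ± 0.0987). Of 23 beta cell transcription factors 2 rose and 2 fell, the latter being Bhlha15 and Glis3 (-0.38 ± 0.0736), and without CC array 1 the count was 1 and 2.

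Single genes of the secretory granule moved apart from insulin. Called members were 21.4% of the granule and glucose sensing list and 18.2% of the exocytosis list, beside 8.54% of all genes. Nnat, a membrane protein that helps process preproinsulin, read 12.53, 12.37, 12.53 and 12.48 in DC and 10.94 and 11.18 in CC (1.42 ± 0.216 SE; adjusted p = 0.000576), 2.67-fold. The granule protein Chgb fell from 13.24 and 13.26 to 12.81, 12.86, 12.76 and 12.76 (-0.45 ± 0.0891). Neither gene overlapped between the groups. The peptide precursor Vgf fell by 0.40 ± 0.0821, and over the whole list of 28 granule and glucose sensing genes 3 rose and 3 fell (median 0.03; 2 and 2 without CC array 2). Among 22 exocytosis genes the granule effector Sytl4 (0.89 ± 0.112) and the calcium sensor Scgn (0.84 ± 0.153; 0.51 without CC array 1) rose, while the synaptotagmins Syt5 (-0.61 ± 0.0858) and Syt4 (-0.47 ± 0.0917; -0.39 and adjusted p = 0.081 without CC array 2) fell. The synaptic vesicle protein Sv2b rose 2.57-fold, from 9.95 and 10.21 to 11.50, 11.42, 11.39 and 11.46 (1.36 ± 0.152). Txnip, the glucose-induced partner of thioredoxin, fell by 1.04 ± 0.126, from 9.53 and 9.83 to 8.56, 8.66, 8.61 and 8.74.

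MIN6 cells also carry RNA of other islet hormones, and 2 genes of the alpha cell list fell. Glucagon, Gcg, read 11.78, 11.58, 11.64 and 11.57 in DC and 12.48 and 12.66 in CC (-0.93 ± 0.116 SE; adjusted p = 0.000112). Transthyretin, Ttr, read 12.28, 12.38, 12.28 and 12.48 against 13.12 and 13.21 (-0.81 ± 0.143; adjusted p = 0.00172). Both were well above the bulk of genes in each culture, and their groups did not overlap. The summed signal of the 6 measured alpha markers, Gcg and Ttr included, was 20523 to 21775 in DC and 26591 to 27554 in CC. The list did not fall as a group. Its median was -0.04, with 2 members above 0 and 4 below, and 33.3% were called beside 8.54% of all genes. Somatostatin, Sst, differed by -0.36 ± 0.143 and did not pass (adjusted p = 0.152). Of the 8 delta, PP and epsilon markers 0 passed limma, and 0 passed of the 9 acinar, the 7 duct and the 13 fibroblast markers (1, 0, 1 and 0 at an unadjusted p under 0.05). Without CC array 1 there was 1 acinar marker called higher. Their summed signals overlapped between the cultures for acinar (1387 to 1550 in DC, 1302 to 1475 in CC), duct (1453 to 1590 against 1492 to 1573) and fibroblast markers (2549 to 2784 against 2487 to 2872). Macrophage and endothelial markers summed to 1726 to 1802 in DC and 1862 to 1941 in CC. There Cd68, a lysosomal protein, was the called member of 12 (-0.44 ± 0.0988; -0.41 and adjusted p = 0.0971 without CC array 2). The part of these markers in the results was not tested.

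Single genes of the cell surface and matrix rose as well, without a rise of the lists nearest to them. Tnr, the matrix glycoprotein tenascin-R, read 9.38, 9.45, 9.33 and 9.50 in DC and 7.82 and 8.06 in CC (1.48 ± 0.117 SE; adjusted p = 1.82e-06), 2.79-fold. The basement membrane protein Fras1 read 9.96, 9.96, 10.08 and 9.93 against 8.85 and 8.69 (1.21 ± 0.0963), and the secreted Olfml3 rose by 1.31 ± 0.141. The adhesion molecule L1cam read 9.43, 9.47, 9.44 and 9.40 in DC and 8.46 and 8.47 in CC (0.97 ± 0.087; adjusted p = 5.27e-06). In each of these the CC arrays lay below all DC arrays. Fibronectin, Fn1, rose by 0.71 ± 0.124, and it missed the threshold without CC array 2 (0.54, adjusted p = 0.0546). The cytoskeletal protein Map2 rose by 0.55 ± 0.079. Called members were 1 of 25 integrin and matrix genes (4%), 3 of 19 junction genes (15.8%) and 2 of 22 neural markers (9.09%). The share of all genes was 8.54%. As a whole these lists had medians of 0.01, 0.02 and 0.08. Without CC array 1 they had 2, 2 and 3 called members, and without CC array 2 they had 0, 1 and 1.

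The antioxidant, iron and selenoprotein lists had medians near 0, with more falls than rises among their called members. The extracellular superoxide dismutase Sod3 fell by 1.27 ± 0.131, from 9.97 and 10.25 to 8.99, 8.80, 8.65 and 8.92. The glutathione transferase Gstm1 rose by 0.91 ± 0.159, from 9.08 and 9.66 to 10.46, 10.13, 10.37 and 10.18. The iron exporter ferroportin, Slc40a1, fell from 8.30 and 8.55 to 7.59, 7.39, 7.46 and 7.49 (-0.94 ± 0.0857), and Hfe, which regulates iron uptake, fell by 0.56 ± 0.0808. All 4 had arrays that did not overlap. Over the NRF2 list of 23 genes 1 rose and 3 fell (median -0.09), and over 23 iron genes 1 rose and 4 fell (median -0.01). Over 23 selenoproteins 4 fell (median -0.04), led by Selenos (-0.61 ± 0.0996) and Selenoi (-0.55 ± 0.0828). Called shares of the NRF2, iron and selenoprotein lists were 17.4%, 21.7% and 17.4%, beside 8.54% of all genes. The number of falls in these 3 lists was 5, 4 and 6 without CC array 1 and 2 in each without CC array 2. The interferon factor Stat2 rose by 0.50 ± 0.0769 as the called member of 21, where 2 rose and 2 fell without CC array 1. Of the 30 oxidative phosphorylation genes 0 passed limma (5 at an unadjusted p under 0.05), and 6 were lower without CC array 1. The clock gene Per3 rose by 0.56 ± 0.0774, and the glucocorticoid target Klf9 fell by 0.61 ± 0.0971.

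In the scrambled arrays Hes3 was among the dimmer genes, and its DC and CC values overlapped (0.17 ± 0.094 SE; adjusted p = 0.377). It passed as higher in DC without CC array 1 (0.37, adjusted p = 0.0141), and its sign turned without CC array 2 (-0.04). Hes1, the Notch target, fell by 0.32 ± 0.0876 (adjusted p = 0.0323) and lost its call without either CC array (-0.34 and -0.30). Of 35 Notch and Hes/Hey genes 1 rose, the ligand Dll1 (0.45 ± 0.082), and 4 fell, with a median of -0.01. The called share was 14.3%, beside 8.54% of all genes. There were 2 rises and 1 fall without CC array 1, and 1 of each without CC array 2.

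The arrays labelled Hes3 siRNA repeat the culture comparison on RNA that shares no array with the scrambled arrays. The test also shares its estimate of the spread between them, and the labels put all samples in the same experiment. Of the 1702 genes called in the scrambled arrays, 1635 (96.1%) had the same sign there, as did 73.5% of all genes. The same direction was called for 1326, which is 77.9% of the 1702 and 16.6% of the 7986 genes called in the arrays labelled Hes3 siRNA (40.1% of all genes). Of 1086 falls 959 were called as falls (88.3%, and 25.5% of the 3755 falls of that label), and of 616 rises 367 were called as rises (59.6%, and 8.67% of the 4231 rises of that label). At 1.5-fold or more, 233 of 235 falls (99.1%) and 90 of 112 rises (80.4%) were called again. Differences under that label also leaned with signal level. Their median was 0.15 in the dimmest of 4 equal parts of all genes and -0.19 in the brightest. In the scrambled arrays these medians were 0.04 and -0.04. The part of this lean in the repeated calls was not tested. Hmgcs1 differed by 1.65 ± 0.143 in the arrays labelled Hes3 siRNA, Id1 by -1.81 ± 0.0968, Id2 by -2.87 ± 0.207 and Dusp6 by -2.07 ± 0.143. Values nearer 0 there belonged to Idi1 (0.33 ± 0.197), Scgn (-0.10 ± 0.153) and Anln (-0.06 ± 0.105). Genes called in opposite directions under the 2 labels were Ect2, a regulator of cytokinesis (0.51 ± 0.121 scrambled and -0.32 ± 0.121 labelled Hes3 siRNA), and the peroxisomal transporter Abcd2 (0.43 ± 0.126 and -0.42 ± 0.126). Neither scrambled call was kept without CC array 1, and that of Abcd2 was also lost without each of the other 5 scrambled arrays. Abcd2 was singled out after its values were seen.

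Whether the culture difference itself differed between the labels was tested directly, and 0 of 19938 genes passed limma. At an unadjusted p under 0.05 there were 3471 genes (17.4%). The genes with the smallest p included Selenop, the selenium carrier, which differed between cultures by -0.29 ± 0.103 in scrambled arrays and by -1.08 ± 0.103 in those labelled Hes3 siRNA, and the exonuclease Eri2 (0.25 ± 0.0938 and -0.46 ± 0.0938), each with an adjusted p of 0.177 for the difference. The result turned on CC scrambled array 2. Without that array 2056 genes passed, 1565 with a higher and 491 with a lower difference in the scrambled arrays.

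**Figure D5:**
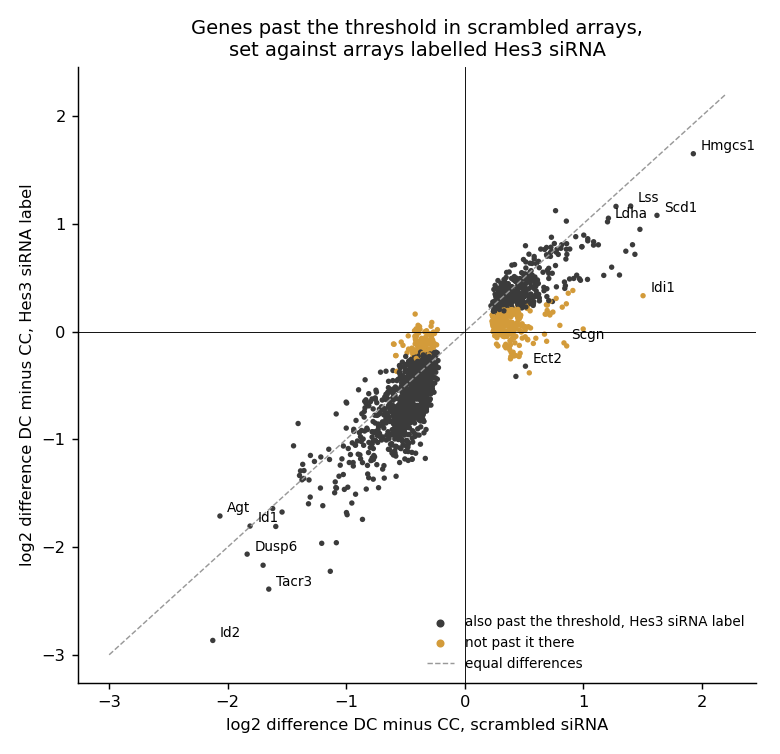
Log2 difference, DC minus CC, of the 1702 genes called in the scrambled arrays (horizontal) against the same difference in the arrays labelled Hes3 siRNA (vertical), with a dashed line where both are equal. Black points were called in both sets of arrays and orange points were not called in the arrays labelled Hes3 siRNA. The median of the falls is -0.43 in the scrambled arrays and -0.56 in the others, with Id2 (-2.13 and -2.87) below the line. Rises such as Idi1 (1.51 and 0.33) lie below it too.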

How the data were processed

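RNA of 12 MIN6 samples was labelled from 250 ng of total RNA for Affymetrix whole-transcript arrays, per the labels' protocols. Whether the samples were separate cultures is not stated. Each array has 1 deposited value for every probe set. The authors deposited these values on a log2 scale, as read from their range, since no label states the unit, and the summarization, background correction and normalization are not given in the sources used here. Of 35556 probe sets, the platform annotation of 2016 names 1 gene for 21789, several for 1621 and none for 12146. In 999 genes with several probe sets the brightest over the 12 arrays was used, with no filter on dim genes. All 12 columns were used and 0 left out. Some genes, among them Ins1, Gapdh and Cdkn1a, are not analysed here.

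Differences came from limma 3.58.1 in R 4.3.3, with 1 mean per group over the 12 arrays, so that the 4 groups share an estimate of the spread (8 residual and 7.62 prior degrees of freedom). P-values are two-sided and adjusted by Benjamini-Hochberg over 19938 genes, with a threshold of 0.05. Errors of differences are standard errors of the model. On simulated data of 19938 genes the fit recovered 81% of 100 genes changed by 0.5 log2 units and 100% of 100 changed by 1, with 10 false calls. The simulated noise was drawn independently for each gene, with the same spread in all groups. It held no deviation shared by the genes of an array, so its false calls give no rate for the real arrays.

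The comparison, the 44 gene lists (848 of 907 entries measured) and the rule for named genes were chosen with earlier results of these data known. The rule takes Hes3, Ins2, Pdx1, Mafa and Hes1, the 15 largest rises and falls with arrays that do not overlap, up to 6 called members of each list (or its 2 brightest members where none was called), the whole cholesterol lists, and the 5 smallest p of the difference between labels. The text prints part of them. Vegfa, Bnip3, Slc2a1 and Abcd2 were named after their values were seen. Lists are described by counts and medians, without a set test. Summed signals of markers are sums of 2 to the power of the log2 value. Alternatives were other normalizations (quantile, median centring, cyclic loess), a filter on dim genes, eBayes with trend and robust settings, fits on fewer arrays, averaging the probe sets of each gene, testing every probe set, array weights, the replicate number as a block, minimum folds, and leaving out each array.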

Additional observations from a re-analysis of the deposited data

Results flagged for a closer look

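In 6 of 195 named genes 1 of the 4 DC scrambled arrays lay far from the other 3 for the range of the group, which chance gives in about 1 in 20 groups of independent values (ratios of the gap to the range). These were Scd1 (ratio 0.911; array 1 at 11.79 against 11.76 to 11.77), Dhcr7 (0.83; array 1 at 10.24 against 10.30 to 10.31), Insig2 (0.882; array 2 at 9.94 against 10.21 to 10.25), Syt4 (0.891; array 1 at 10.88 against 10.99 or more), Ect2 (0.84; array 3 at 10.59 against 10.86 to 10.91) and Dll1 (0.91; array 3 at 8.21 against 7.97 to 7.99). In Scd1 and Dhcr7 the distance is a few hundredths of a log2 unit. Among the arrays themselves, DC scrambled array 2 had the lowest SD over probe sets (1.821 against 1.844 to 1.847; ratio 0.889). Outside the genes tested, 216 of 13767 probe sets without exactly 1 gene symbol passed the threshold, 122 higher and 94 lower in DC.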

How the results depend on the processing

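The count of 1702 genes was 1054 with array weights and 804 with the replicate number as a block, 347 at 1.5-fold and 64 at 2-fold or more, and 742 (without CC array 2) to 2364 (without CC array 1) when 1 array was left out. It stayed between 1320 and 2175 otherwise. The replicate block is not a pairing the labels give: same-numbered DC and CC arrays deviated in opposite directions (correlations -0.39 and -0.441). Of 169 named genes called, 127 kept their call with the block, 144 with weights, 140 without CC array 1 and 117 without CC array 2, and 149 to 169 in the other alternatives that kept all of them tested. None of the 169 reversed in any alternative run. The difference between siRNA labels had 0 genes except without CC scrambled array 2 (0 to 2056 over single arrays left out). Signs turned for Hes3 (-0.0404 without CC array 2 to 0.37 without CC array 1), Pdx1 (-0.0082 without CC array 1 to 0.13 without CC array 2), Hif1a (-0.095 without CC array 1 to 0.39 without CC array 2) and Ins2 (-0.004776 with arrays centred). The cause was not tested.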
